A study of Mus musculus with 49 samples.

Results

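What MIXL1 changed when it was added to SOX2, KLF4 and MYC in mouse fibroblasts was read from 4 of the 49 arrays of the series. These were the 2 arrays of MIXL1+SKM and the 2 arrays of EV+SKM, chosen by their titles, and all 10108 genes with a value on them were compared. SKM stands for the last 3 of these factors and EV for an empty vector. The cells of both groups were embryonic fibroblasts (MEF) of strain OGXICR, female, at stage D13.5, isolated from limb and tail skin with the epidermis removed. Each factor came from a lentivirus switched on by doxycycline, so EV+SKM shared SOX2, KLF4 and MYC with MIXL1+SKM and lacked MIXL1 alone. The labels do not say whether the 2 arrays of a group were separate cultures. A p-value therefore measures the spread between arrays, which may be technical, and 2 arrays in a group set the limit of precision.

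The other arrays used were 2 of MEF1 EV, the same kind of fibroblast with empty vector and no SKM, which the labels call the reference for OCT4 substitutes, and 17 of SKM with another factor. That factor was OCT4, GATA6, SOX7, PAX1, CEBPa, HNF4a or GRB2 on 2 arrays each and GATA4 on 3. These 23 arrays of 11 groups lack values for the same probes and have nearly equal medians, from 400.8 to 416.1 in intensity, the brightness of a probe on a linear scale. The study asked whether other factors can stand in for OCT4 in reprogramming. The question here is how the transcripts of SKM cells differed when MIXL1 took the place of the empty vector.

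MIXL1 is a homeodomain transcription factor of the paired type. In the embryo it marks the primitive streak, where mesoderm and endoderm arise, and it binds DNA as a dimer on palindromic sites built around TAAT. Goosecoid (Gsc), brachyury (T) and Eomes are other genes of the streak, and the secreted signals Nodal, BMP and Wnt act upstream of them. SOX2, KLF4 and MYC, together with OCT4, are the classical factors that turn fibroblasts into pluripotent stem cells.

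The factor genes did not serve as a check of the infection. Mixl1, Sox2, Myc, Sox7, Pax1, Cebpa and Hnf4a had no value on these arrays. Klf4 was at 1467 and 1156 with MIXL1+SKM, at 1663 and 1723 with EV+SKM and at 3511 and 3673 in MEF1 EV, where no KLF4 was introduced. Whether its probe matches the introduced KLF4 is not known. Pou5f1, the gene of OCT4, was at 229 and 218 with MIXL1+SKM and at 129 and 108 with EV+SKM, a difference that did not pass (log2 0.76, adjusted p = 0.326). It was at 158 and 170 with OCT4+SKM, so its probe did not follow the introduced OCT4.

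Markers of the labelled fibroblast were present. Over 10 measured fibroblast markers the summed intensity was 108625 to 116077 with MIXL1+SKM, 112222 to 132181 with EV+SKM and 152607 to 162366 in MEF1 EV. Over 4 measured keratinocyte markers it was 46167 to 52936, 53902 to 58384 and 3770 to 4179 in the same order, and over 2 markers of simple epithelium 17278 to 18058, 8805 to 13038 and 346 to 351. Endothelial (3 measured, 320 to 444 with MIXL1+SKM) and macrophage markers (3 measured, 441 to 467) were low. Adipocyte markers (3 measured) summed to 981 to 1221 with MIXL1+SKM, 527 to 661 with EV+SKM and 3435 to 3621 in MEF1 EV. Pluripotent markers (3 measured) summed to 879 to 958, 629 to 642 and 831 to 929 in the same order. Skeletal muscle markers (2 measured) summed to 1421 to 1479, 998 to 1143 and 841 to 964. The sums of these markers did not overlap between MIXL1+SKM and EV+SKM, as holds for 46.4 percent of single genes tested. Their part in the results was not tested. For markers such as these, a change in the share of cells of a type and a change in RNA per cell cannot be told apart in bulk samples. Mesendoderm markers (4 measured, T and Gsc the brightest) summed to 1408 to 1481 with MIXL1+SKM, 947 to 1137 with EV+SKM and 1253 to 1289 in MEF1 EV.

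MIXL1+SKM against EV+SKM gave a short list of changes led by a few large rises. A probe of Nav2, a cytoskeletal regulator of neurite growth, stood highest, although a second probe of the gene did not follow it. Gal, the neuropeptide galanin, Krt27, a keratin of the hair root sheath, Gsta3, a glutathione transferase, and Tprg came next. Of 26 measured genes of the interferon response 11 rose and 15 did not pass. The largest falls were smaller, in Hpgd, the enzyme that inactivates prostaglandins, in the matrix protein Dpt, and in Pi16 and Khdc1a. Of 10108 genes 202 changed (2.00 percent), 103 upward (1.02 percent) and 99 downward (0.979 percent), in limma with Benjamini-Hochberg adjusted p under 0.05. Of the rises 53 were at least 2-fold and 14 at least 4-fold, and of the falls 20 were at least 2-fold and 0 at least 4-fold. The median difference was 1.03 among the rises, -0.75 among the falls and -0.02 over all genes, on the log2(intensity + 32) scale used for every difference here.

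The count of 202 rests on few arrays. It was 109 without MIXL1+SKM replicate 1, 76 without MIXL1+SKM replicate 2, 75 without EV+SKM replicate 1 and 143 without EV+SKM replicate 2. A fit on MEF1 EV and the SKM groups alone called 695 genes. Of 62 genes named for this comparison, 28 passed in every alternative, and the rest did not pass in at least 1. For those the highest adjusted p with an array left out is given below.

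**Figure D1:**
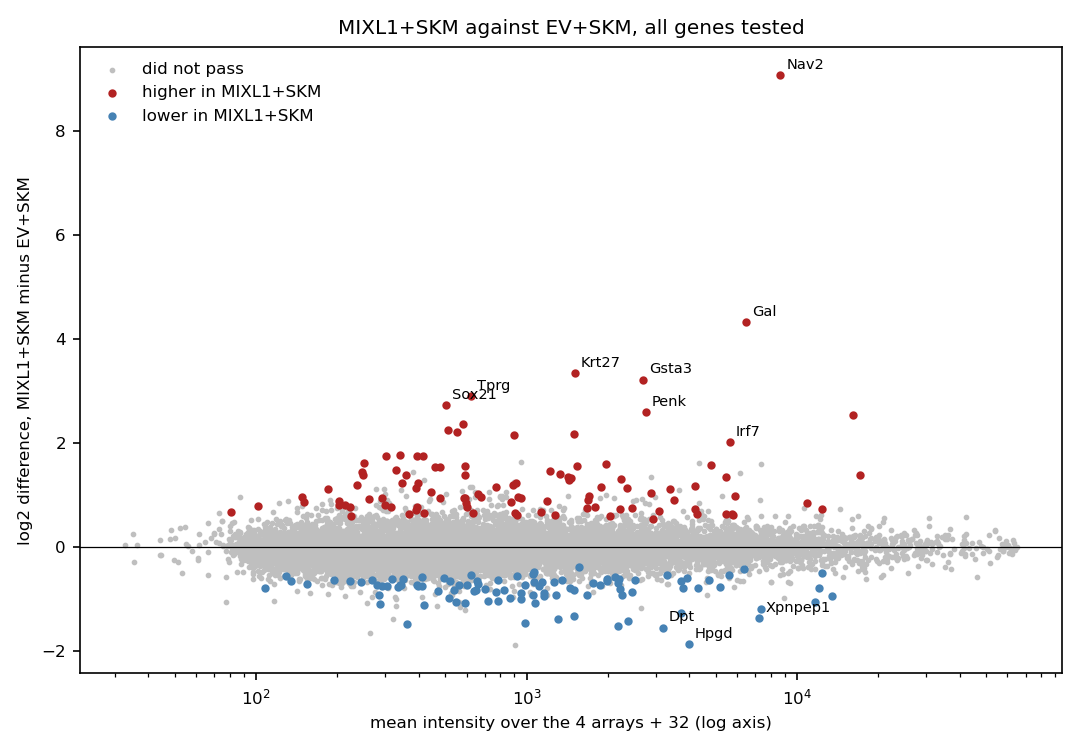
Each point is a gene, with the mean intensity over the 4 arrays plus 32 on a log axis and the log2 difference, MIXL1+SKM minus EV+SKM, on the vertical axis. Red points are the 103 genes that rose and blue points the 99 that fell. The Nav2 probe with the highest mean (9.07) and Gal (4.33) lie above the other rises, and the lowest fall that passed is Hpgd (-1.87).

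For Gal and Krt27 the MIXL1+SKM arrays stood far from all others. Gal was at 11916 and 12612 with MIXL1+SKM, at 672 and 499 with EV+SKM and at 702 and 227 in MEF1 EV, and the 17 arrays of the other factors ran from 241 over a median of 392 to 1210. Both MIXL1+SKM arrays lay far above every other array. The difference from EV+SKM was 4.33 (SE 0.43, adjusted p = 3.93e-07), and against the mean of the 8 other factors, a comparison that uses no EV+SKM array, it was 4.75 (SE 0.32, adjusted p = 5e-11).

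Krt27 was at 2754 and 2669 with MIXL1+SKM against 265 and 214 with EV+SKM. It was at 234 and 236 in MEF1 EV and between 65.2 and 124 on the 17 other arrays. The MIXL1+SKM arrays stood apart from all others, by 3.34 from EV+SKM (SE 0.16, adjusted p = 6.24e-16) and by 4.47 from the mean of the 8 other factors (SE 0.12, adjusted p = 2.26e-23). Tprg, whose name refers to regulation by the epidermal factor p63, was also apart, with 1015 and 1115 against 136 and 95.3 and a range of 64.5 to 188 on the 17 arrays. It differed by 2.90 from EV+SKM (SE 0.17, adjusted p = 6.83e-14) and by 2.89 from the mean of the 8 others (SE 0.13, adjusted p = 2.87e-17).

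Penk, the precursor of the enkephalin peptides, was at 4335 and 5064 with MIXL1+SKM and at 655 and 852 with EV+SKM. The rise of 2.60 (SE 0.40, adjusted p = 0.000103) brought it to the level of MEF1 EV, with 3090 and 3777, and above the 17 other arrays, which reached 3063. The difference from MEF1 EV did not pass (0.45, SE 0.40, adjusted p = 0.473). Pde1a, a phosphodiesterase that degrades cyclic nucleotides, was at 3018 and 2841 against 1024 and 872 (1.60, SE 0.33, adjusted p = 0.00433, up to 0.0666 with an array left out). Its highest value among the 17 other arrays was 2177, and its other 2 probes differed by 1.21 and 1.04.

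The largest value, that of Nav2, came from a probe that was bright in some groups and near 0 in others. It read 15638 and 18817 with MIXL1+SKM and 0.00565 and 0.0087 with EV+SKM. In GATA6+SKM, SOX7+SKM and PAX1+SKM it had means of 12453, 14723 and 14070, and in the other groups the mean was at most 96.9, in CEBPa+SKM. The log2 difference of 9.07 (SE 0.46, adjusted p = 2.41e-15) depends on the pseudocount, the constant added before taking log2, and was 14.07 with a pseudocount of 1 and 7.08 with the largest one tried. A second Nav2 probe, dimmer on the MIXL1+SKM arrays, read 309 and 386 against 298 and 279, a difference of 0.24. The probes of this gene thus disagreed, and no fold is given for Nav2 itself.

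Gsta3 also had a second bright group. It was at 4947 and 4742 with MIXL1+SKM, at 491 and 493 with EV+SKM and at a mean of 4100 in GATA6+SKM, and no other group mean was above 507. The difference from EV+SKM was 3.22 (SE 0.46, adjusted p = 3.06e-05). Sox21, a transcription factor of neural progenitors and of the hair cuticle, was at 812 and 876 against 97.6 and 103 (2.73, SE 0.27, adjusted p = 3.23e-08). Its mean was higher in GATA4+SKM, at 2892, and MIXL1+SKM came next among the 11 groups.

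Other named rises were shared with OCT4+SKM. Ifi27l2a, an interferon-inducible gene of mitochondria, was at 26110 and 28803 with MIXL1+SKM, at 4696 and 4752 with EV+SKM and at 29784 and 29907 with OCT4+SKM. It rose by 2.53 (SE 0.32, adjusted p = 3.87e-06), and its difference from OCT4+SKM was -0.12 (SE 0.32, adjusted p = 0.876). Entpd3, which hydrolyses extracellular nucleotides, rose by 2.37, with 1068 and 822 against 148 and 163, and stood at 2883 and 3549 with OCT4+SKM. Elavl2, a neuronal RNA-binding protein, rose by 2.25, with 754 and 870 against 171 and 122, and stood at 1510 and 2207 with OCT4+SKM. For both genes the MIXL1+SKM arrays lay between those of EV+SKM and OCT4+SKM.

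Ednrb, an endothelin receptor, was at 950 and 804 with MIXL1+SKM against 147 and 181 with EV+SKM, a rise of 2.21 (SE 0.25, adjusted p = 6.24e-07), and at 789 and 808 in MEF1 EV. Srgn, the proteoglycan serglycin, rose by 2.16, with 2314 and 2500 against 565 and 463, and its mean was 2792 in PAX1+SKM. Wnt2, a Wnt ligand, rose by 2.16, with 1378 and 1501 against 350 and 252. It was at 1143 and 1109 in MEF1 EV and had its highest mean, 3528, in GATA6+SKM. These rises lifted the genes above EV+SKM into a range that other groups also held.

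Of the 15 named rises, 7 had both MIXL1+SKM arrays above all 17 arrays of the other factors. They were Nav2 (by the probe with the highest mean), Gal, Krt27, Gsta3, Tprg, Penk and Pde1a. Over all 103 rises 26 did so (25.2 percent), and over all genes tested 595 did (5.89 percent). The genes were called with the same MIXL1+SKM arrays, so these counts describe the levels and test nothing.

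**Figure D2:**
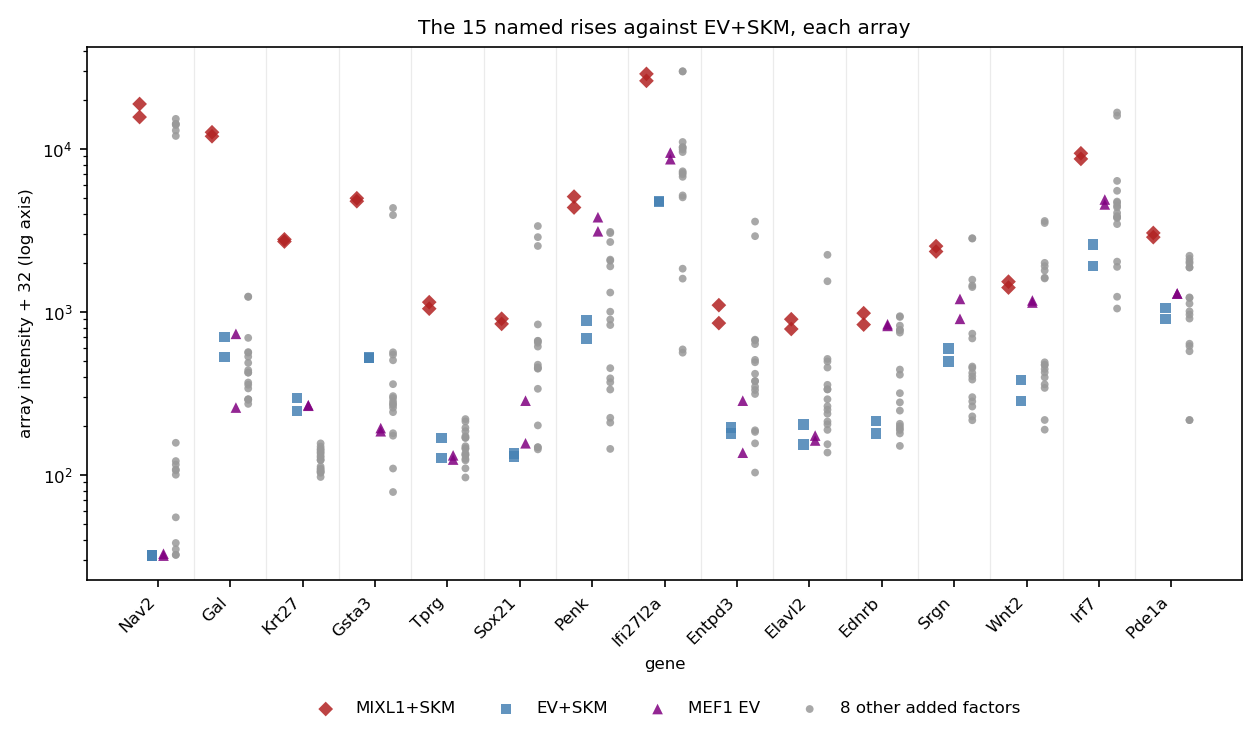
Array intensity plus 32 on a log axis for the 15 genes with the largest rises under the naming rule, with 1 point per array. Red diamonds are MIXL1+SKM, blue squares EV+SKM, purple triangles MEF1 EV and grey circles the 17 arrays of the 8 other added factors. Gal, Krt27 and Tprg have MIXL1+SKM arrays apart from all others, and Nav2 and Gsta3 share their high level with some arrays of other factors.

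Of the 29 lists, the interferon response had the most calls and the highest median. Type I interferon switches on a set of antiviral genes, many of which carry an interferon-stimulated response element in the promoter, and Irf7 is both a target and an amplifier of that loop. Of 26 measured genes of this list 11 rose and 0 fell, and 23 of the 26 differences were above 0. The median was 0.82, beside -0.02 over all genes. The count was 6 without MIXL1+SKM replicate 1, 4 without MIXL1+SKM replicate 2, 6 without EV+SKM replicate 1 and 7 without EV+SKM replicate 2, and the median stayed between 0.77 and 0.89 in these fits. The summed intensity of the 26 genes was 122403 to 133239 with MIXL1+SKM, 86641 to 95067 with EV+SKM and 104454 to 109038 in MEF1 EV. Of 6 listed macrophage markers 3 were measured and summed to 441 to 467 with MIXL1+SKM and 539 to 582 with EV+SKM. The part of macrophages in the interferon result was not tested.

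Irf7 was at 8646 and 9362 with MIXL1+SKM, at 1883 and 2565 with EV+SKM and at 4857 and 4530 in MEF1 EV. The arrays of the 3 groups did not overlap, and the rise was 2.02 (SE 0.19, adjusted p = 3.96e-08). Irf7 was higher still in GATA6+SKM, with a mean of 16308, and lowest in SOX7+SKM, with 1112. Ifi44, an interferon-induced antiviral gene, was at 626 and 525 against 141 and 154 (1.76, SE 0.21, adjusted p = 2.04e-05). It stood at 705 and 645 in MEF1 EV, so EV+SKM was low and MIXL1+SKM close to the fibroblasts without SKM.

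The immunoproteasome subunits Psmb8 and Psmb9, which cut peptides for presentation by MHC class I, rose as well. Psmb8 was at 4689 and 4534 against 1819 and 2438 (1.12, SE 0.18, adjusted p = 0.000237), and Psmb9 at 1985 and 2124 against 773 and 826 (1.33, SE 0.22, adjusted p = 0.000256). MIXL1+SKM had the highest mean of both genes among the 11 groups. Tap1, the transporter that loads those peptides, was at 6799 and 7175 against 3142 and 3963 and did not pass (0.98, adjusted p = 0.0781).

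Among antiviral effectors, Oasl2 was at 2022 and 1987 against 880 and 733 (1.29, SE 0.28, adjusted p = 0.00633), and Gbp3, a guanylate-binding GTPase, at 2510 and 2640 against 1207 and 1065 (1.16, SE 0.27, adjusted p = 0.0147). Oasl1 rose by 0.92, Rsad2, which makes an antiviral nucleotide, by 0.89, Mx2 by 0.76, Bst2, which tethers budding virus, by 0.73 and the exonuclease Isg20 by 0.64 (0.43 by a dimmer probe). Those 7 calls were each lost with at least 1 array left out, with highest adjusted p = 0.0903 for Oasl2, 0.15 for Gbp3, 0.0715 for Oasl1, 0.107 for Rsad2, 0.129 for Mx2, 0.292 for Bst2 and 0.539 for Isg20. Irf7, Ifi44, Psmb8 and Psmb9 passed in every alternative. Members that did not pass include Ifit1, at 8956 and 8897 against 3614 and 3064 (1.41, adjusted p = 0.494), and Ifitm3, at 41642 and 49454 against 52027 and 40759 (-0.02, adjusted p = 0.995). The arrays of Ifit1 do not overlap between the groups, as holds for 46.4 percent of all genes tested.

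The promoter sequences of some of these genes are shown because 11 members rose and a response element is known for the group. Windows run from 250 bases before to 50 after the gene start in RefSeq, build GRCm38.p6, and 8150 of the 10108 genes had a window. The interferon response element was searched as GAAA, 2 bases of any kind and GAAA again, on both strands, and was chosen after the values were seen. It was in 11 of 22 windows of the interferon list, in 3 of the 10 windows of its members that rose, in 11 of 83 windows of all rises, in 3 of 78 of all falls and in 3.51 percent of the windows of all genes tested. The 3 members that rose and hold it follow, read 5′ to 3′ on the gene's strand, with the bases of the matches in capitals (pairs of TTTC where the match is on the opposite strand).
Gbp3, plus strand, chr3:142559794-142560093: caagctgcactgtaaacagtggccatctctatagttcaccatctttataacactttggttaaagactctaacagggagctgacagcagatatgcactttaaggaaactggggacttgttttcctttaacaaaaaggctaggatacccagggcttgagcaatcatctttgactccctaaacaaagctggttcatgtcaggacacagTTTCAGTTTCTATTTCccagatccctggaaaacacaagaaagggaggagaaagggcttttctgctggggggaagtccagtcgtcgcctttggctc
Rsad2, minus strand, chr12:26456403-26456702: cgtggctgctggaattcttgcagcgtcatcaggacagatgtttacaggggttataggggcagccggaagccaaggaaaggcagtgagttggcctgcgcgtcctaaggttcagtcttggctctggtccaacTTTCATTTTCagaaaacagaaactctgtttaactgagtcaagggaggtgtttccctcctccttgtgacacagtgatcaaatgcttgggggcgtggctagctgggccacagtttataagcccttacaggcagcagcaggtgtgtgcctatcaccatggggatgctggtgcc
Bst2, minus strand, chr8:71537423-71537722: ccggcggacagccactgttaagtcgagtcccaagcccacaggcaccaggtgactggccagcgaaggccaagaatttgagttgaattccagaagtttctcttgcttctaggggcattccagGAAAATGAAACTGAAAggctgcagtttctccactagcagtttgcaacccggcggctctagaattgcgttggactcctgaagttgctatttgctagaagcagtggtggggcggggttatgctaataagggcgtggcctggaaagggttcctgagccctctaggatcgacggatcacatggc

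Gbp3 and Bst2 each hold 2 overlapping matches, which begin at -45 and -39 in Gbp3 and at -130 and -124 in Bst2, counted from the gene start, and Rsad2 holds 1 at -120. Beside these windows stand rises of 1.16, 0.73 and 0.89. A match is a description of the letters, and a window without one says nothing about the factor.

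The same search was made for the sites a paired homeodomain protein is known to bind. The palindrome of TAAT, 3 bases of any kind and ATTA was in 0 of 83 windows of rises, 0 of 78 windows of falls and 0.294 percent of the windows of all genes tested. The shorter core TAATTA was in 3 of 83 (3.61 percent), 2 of 78 (2.56 percent) and 3.60 percent. Its share among the rises was close to that of all genes. Tprg is the largest rise whose window holds the core, which is in capitals below and begins at -235.
Tprg, plus strand, chr16:25286567-25286866: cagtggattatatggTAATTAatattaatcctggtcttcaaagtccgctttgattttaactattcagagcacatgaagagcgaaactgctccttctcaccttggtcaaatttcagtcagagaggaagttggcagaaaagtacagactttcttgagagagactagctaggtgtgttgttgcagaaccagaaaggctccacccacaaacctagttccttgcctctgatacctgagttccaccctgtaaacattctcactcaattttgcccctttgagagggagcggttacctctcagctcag

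**Figure D3:**
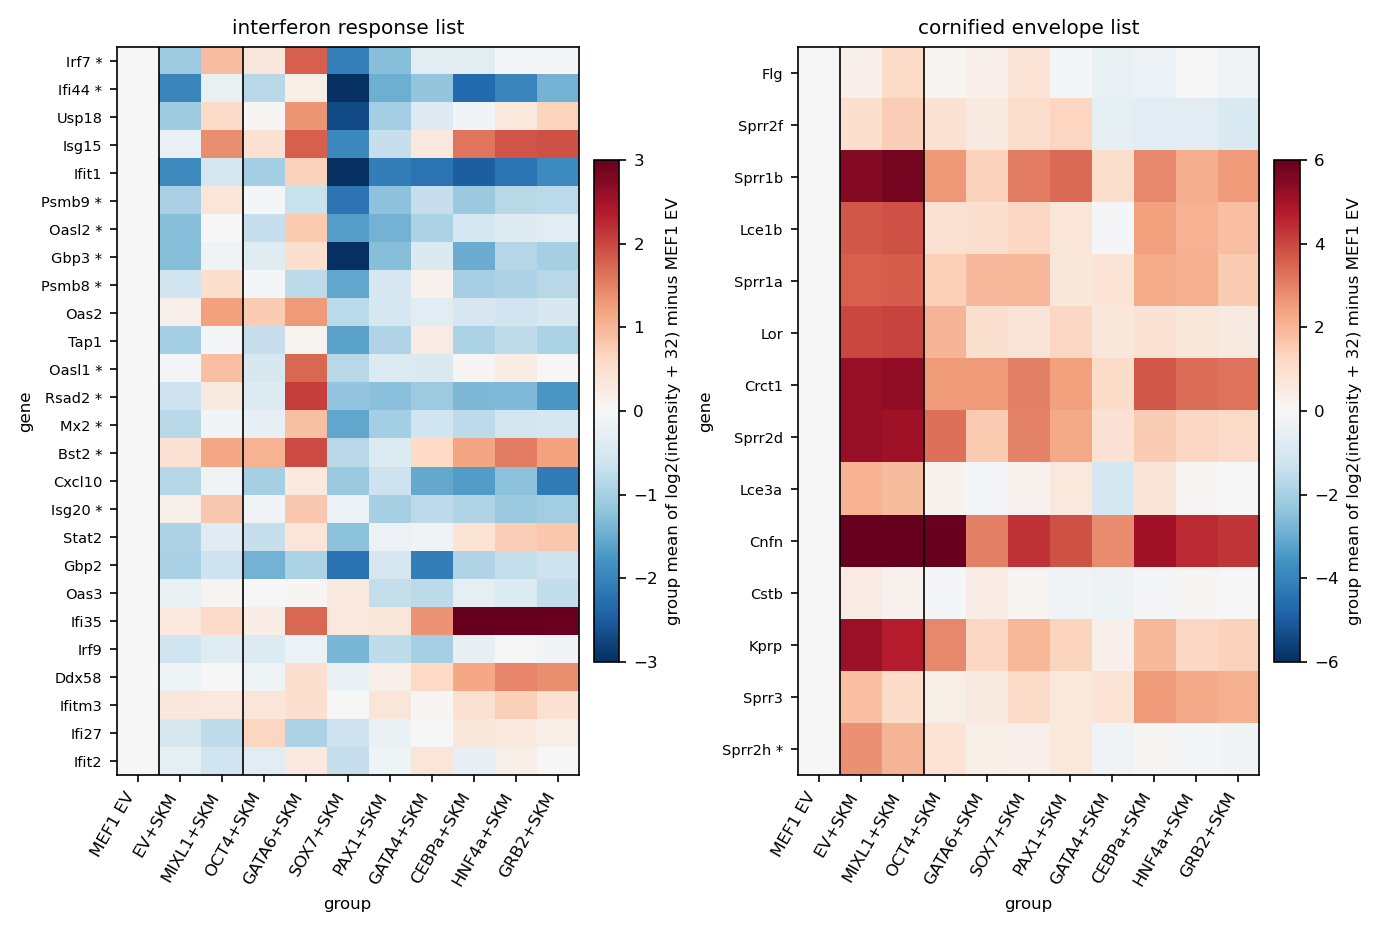
Measured genes of the interferon response list (left) and the cornified envelope list (right) in rows, and the 11 groups in columns. Colour gives the group mean of log2(intensity + 32) minus that of MEF1 EV, values beyond the scale take the end colour, and a star marks genes that passed in MIXL1+SKM against EV+SKM. Interferon genes such as Irf7 and Ifi44 are lower in EV+SKM than in MIXL1+SKM, and most cornified envelope genes are high in EV+SKM and MIXL1+SKM alike.

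The mesendoderm list, which holds the genes MIXL1 is known for, had 1 rise among 15 measured genes and a median of 0.22. The rise was Gsc, a homeobox gene of the organizer, at 580 and 613 with MIXL1+SKM and at 303 and 290 with EV+SKM (0.94, SE 0.19, adjusted p = 0.00292, up to 0.0574 with an array left out). It was at 489 and 451 in MEF1 EV and at most 478 on the 17 other arrays, so MIXL1+SKM was the highest group by a narrow margin. T was at 830 and 697 against 779 and 606 (0.14, adjusted p = 0.972). Gata6 was at 3075 and 2876 against 2361 and 2336 (0.34, adjusted p = 0.751), and Gata4 at 908 and 379 against 1083 and 1100 (-0.85, adjusted p = 0.348). Of the endoderm and liver list 1 of 10 rose, the retinol carrier Rbp4 (0.77, adjusted p = 0.0068, up to 0.23 with an array left out), whose other probes differed by 0.01 and 0.03. Of the heart and early mesoderm list 1 of 15 fell, Wt1, by 0.55 (77.5 and 66.9 against 115 and 127, up to adjusted p = 0.369 with an array left out).

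In the signalling lists the Wnt pathway had 2 rises and 2 falls among 27 genes. The ligand Wnt2 and the secreted antagonist Frzb rose, Frzb from 270 and 270 to 905 and 801 (1.55, SE 0.14, adjusted p = 1.37e-07). Frzb had its highest group mean in MIXL1+SKM. The secreted antagonist Sfrp1 fell from 14201 and 17298 to 7196 and 7759 (-1.07, SE 0.26, adjusted p = 0.02, up to 0.181 with an array left out), and the intracellular antagonist Nkd2 from 678 and 659 to 383 and 401 (-0.72, up to adjusted p = 0.222). Axin2, a common readout of Wnt signalling named after its values were seen, was at 298 and 379 against 384 and 304 (-0.02, adjusted p = 0.996). None of the 30 measured genes of the TGF-beta, Nodal and BMP list passed in limma, 3 had an unadjusted p under 0.05, and the median was -0.02. Of 24 growth factor and receptor genes Vegfa rose by 0.63 and Igfbp2 fell by 0.83, both lost with an array left out (up to adjusted p = 0.196 and 0.493).

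A few epithelial genes were higher. Of 14 genes of simple epithelium and junctions 3 rose and 0 fell, with a median of 0.37. Cldn7 was at 189 and 249 against 64 and 108 (1.10, adjusted p = 0.00507, up to 0.236 with an array left out), Cldn1 at 814 and 912 against 489 and 372 (0.96, adjusted p = 0.0304, up to 0.314), both claudins of tight junctions, and the vesicle GTPase Rab25 at 1059 and 1138 against 592 and 593 (0.85, adjusted p = 0.0403, up to 0.331). The count was 1 without MIXL1+SKM replicate 1, 0 without MIXL1+SKM replicate 2, 0 without EV+SKM replicate 1 and 2 without EV+SKM replicate 2. The keratins Krt8, at 13320 and 12780 against 5807 and 10309 (0.75, adjusted p = 0.0821), and Krt19, at 4737 and 4499 against 2998 and 2730 (0.68, adjusted p = 0.0626), did not pass.

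Among genes of stratified epidermis 0 percent of the keratinocyte list and 7.14 percent of the cornified envelope list passed, beside 2.00 percent of all genes. Of 14 keratinocyte genes 0 passed in limma and 3 had an unadjusted p under 0.05, with a median of 0.14, and Krt14, a keratin of the basal layer, was at 38748 and 44818 against 51161 and 46556 (-0.23, adjusted p = 0.894). Of 14 cornified envelope genes, which build the outer skin barrier, only Sprr2h passed, from 1272 and 1124 to 691 and 731 (-0.72, adjusted p = 0.0185, up to 0.269 with an array left out). The median was -0.05. Lor, the main envelope protein, was at 5257 and 5931 against 5250 and 5519 (0.05, adjusted p = 0.985).

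In the mesenchymal lists 3.57 percent of fibroblast and mesenchyme genes and 4.76 percent of collagens passed, beside 2.00 percent of all genes. Of 28 fibroblast and mesenchyme genes 1 fell, the microfibril protein Fbn1 (-0.54, adjusted p = 0.0464, up to 0.438 with an array left out), and the median was -0.20. Of 21 collagens 1 fell, Col12a1, from 5540 and 5299 to 3161 and 3046 (-0.80, adjusted p = 0.0184, up to 0.186). Of 14 matrix proteases and inhibitors 0 passed in limma, 5 had an unadjusted p under 0.05 and 13 were below 0, with a median of -0.41, the lowest among the 29 lists. Timp1, at 29395 and 31757 against 35723 and 44401 (-0.38, adjusted p = 0.376), and Timp2, at 21814 and 20613 against 26218 and 34177 (-0.50, adjusted p = 0.13), are among them.

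In the neural list 11.8 percent of the measured genes passed and in the vascular list 12.5 percent, beside 2.00 percent of all genes. Besides Sox21, the neurofilament Nefm rose among 17 ectoderm and neural genes, from 362 and 429 to 772 and 703 (0.85, adjusted p = 0.0287, up to 0.354 with an array left out). Of 16 vessel and early blood genes the surface sialomucin Cd34 fell from 16451 and 19038 to 9538 and 8834 (-0.94, SE 0.15, adjusted p = 0.000206), and the VEGF receptor Flt1 from 2151 and 2157 to 1157 and 1072 (-0.93, adjusted p = 0.00399, up to 0.0792). With MIXL1+SKM both Cd34 arrays lay above those of OCT4+SKM, at 8531 and 7995.

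In the list of inflammatory genes 1 of 20 rose, the cytokine Il1a, from 261 and 337 to 854 and 791 (1.38, SE 0.25, adjusted p = 0.000993, up to 0.0549 with an array left out). The highest of the 17 other arrays read 415, so Il1a was above all of them. In the p53 and senescence list Gadd45b rose by 0.73 and Fas (-0.74) and Mdm2 (-0.43) fell, 3 of 14 genes, and each was lost with an array left out (up to adjusted p = 0.169, 0.147 and 0.433). A second Gadd45b probe, dimmer, differed by 0.21. The glutathione-degrading enzyme Chac1 was the 1 rise of 18 unfolded protein and heat shock genes, from 2016 and 1716 to 3682 and 3987 (1.03, SE 0.16, adjusted p = 8.07e-05), and Aldoc the 1 rise of 12 glycolysis genes (0.59, adjusted p = 0.0403, up to 0.252).

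No measured gene passed in 13 of the 29 lists, among them pluripotency (8 genes, median 0.07), germline (6, 0.03), Hox genes (25, 0.04), cell cycle (25, -0.11), imprinted genes (14, -0.10) and cholesterol synthesis (12, 0.00). Over these 13 lists 18 of 177 entries had an unadjusted p under 0.05 in limma, beside 1077 of all 10108 genes. In the pluripotency list Klf5 was at 615 and 932 against 613 and 517 (0.41, adjusted p = 0.627), and Nr0b1 at 1870 and 1891 against 1628 and 1731 (0.16, adjusted p = 0.86). Nanog and Zfp42 are not analysed here.

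**Figure D4:**
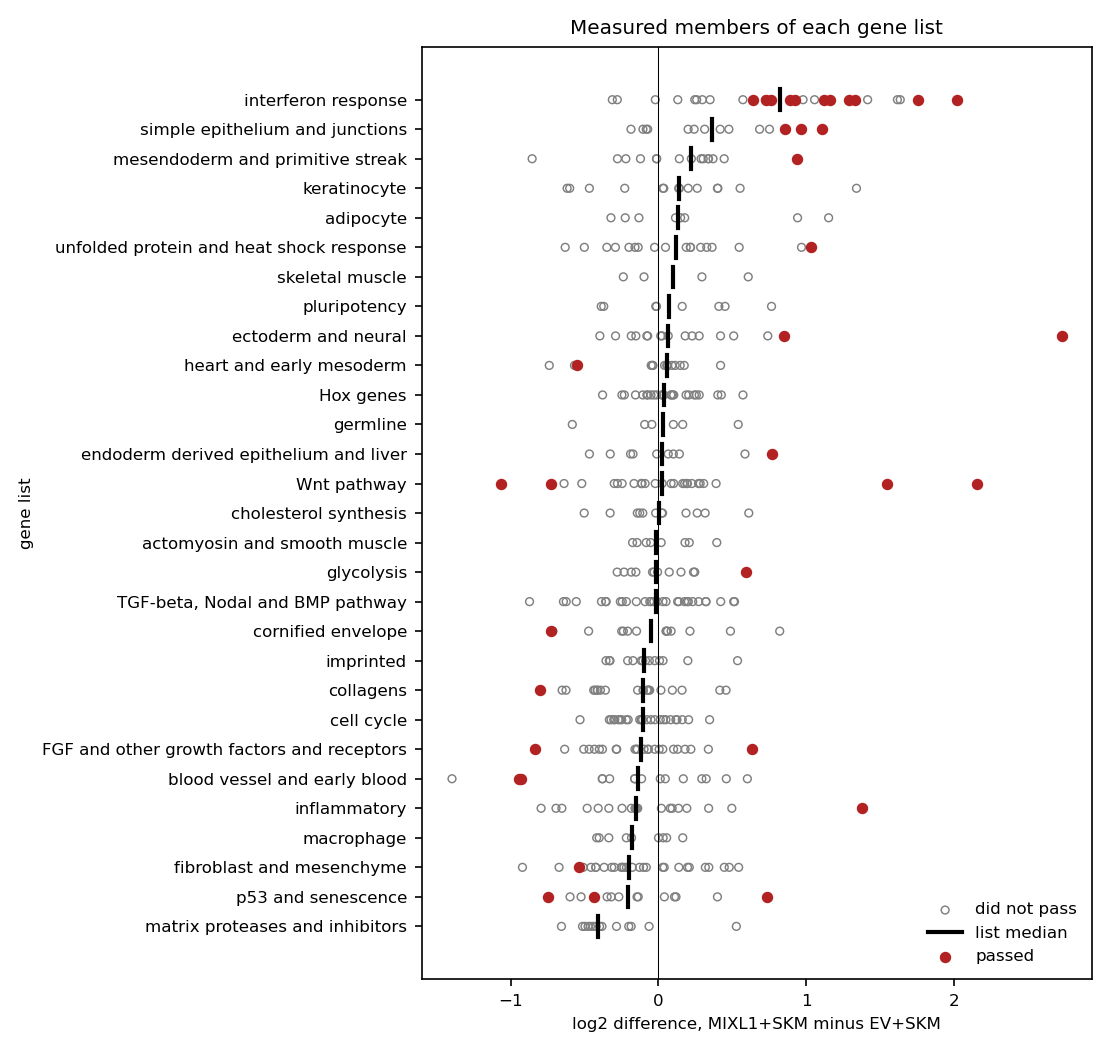
Log2 difference of each measured member of the 29 gene lists, MIXL1+SKM minus EV+SKM, with lists ordered by their median (black bar). Filled red points passed and open grey points did not. The interferon response list has the highest median, 0.82, and 11 filled points, all above 0.

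For several of the falls EV+SKM was the SKM group with the highest level. Hpgd was at 1682 and 1657 with MIXL1+SKM and at 6470 and 5953 with EV+SKM, while MEF1 EV was at 1895 and 1909 and the 17 other arrays ran from 509 to 1745. It fell by 1.87 (SE 0.25, adjusted p = 6.93e-06), and a second Hpgd probe fell by 1.71. Against the mean of the 8 other factors Hpgd was higher, by 0.61 (SE 0.18, adjusted p = 0.00976).

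Dpt, the matrix protein dermatopontin, was at 1567 and 1612 against 4883 and 4563, and the 17 other arrays ran from 445 over a median of 2431 to 3295. It fell by 1.55 against EV+SKM (SE 0.22, adjusted p = 3.06e-05) and differed by 0.08 from the mean of the 8 others (SE 0.16, adjusted p = 0.733). Pi16, a marker of adventitial fibroblasts, was at 1059 and 1120 against 3394 and 2981 (-1.52, SE 0.20, adjusted p = 6.16e-06), and at 98.1 and 101 in MEF1 EV. Its difference from the mean of the 8 others was -0.18 (adjusted p = 0.345).

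Other falls were Clec3b, which binds plasminogen (1294 and 1216 against 3042 and 3826, -1.42), and the phosphatase Ptprv (2183 and 2091 against 5419 and 5021, -1.28, with a dim second probe at -0.46). Upk1b, a uroplakin of urothelium (4552 and 4239 against 8531 and 12079, -1.20), 9530077C05Rik (-1.34) and the calcium channel Cacna1g (-1.07) fell as well. None of these 5 passed against the mean of the 8 other factors (adjusted p = 0.495 for Clec3b, 0.21 for Ptprv, 0.138 for Upk1b, 0.28 for 9530077C05Rik and 0.683 for Cacna1g). Of them Clec3b and Cacna1g lost the call against EV+SKM with an array left out (up to adjusted p = 0.07 and 0.144).

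Khdc1a (518 and 474 against 1560 and 1283, -1.46, SE 0.15, adjusted p = 9.07e-07) was, like Hpgd, above the mean of the 8 others, by 0.64 (adjusted p = 0.000129). Edn2, an endothelin, fell by 1.39, from 1941 and 1769 to 652 and 723 (adjusted p = 0.0068, up to 0.0962), and was at 74.1 and 82.2 in MEF1 EV. Smoc2, a matrix protein that binds calcium, fell by 1.07 (adjusted p = 0.00611, up to 0.125), and Nkain4 by 1.04 (adjusted p = 0.0279, up to 0.316), with a second probe at -1.49. Both were also below the mean of the 8 others, by 0.53 (adjusted p = 0.0149) for Smoc2 and 0.68 (adjusted p = 0.00756) for Nkain4, as was Sfrp1, by 1.18 (adjusted p = 2.16e-05).

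Lgmn, a lysosomal protease, was the named fall that lay below all 17 other arrays. It was at 333 and 358 against 724 and 816 with EV+SKM, and the other factors ran from 381 to 5261. It fell by 1.09 against EV+SKM (SE 0.14, adjusted p = 3.87e-06) and by 1.71 against the mean of the 8 others (SE 0.10, adjusted p = 8.35e-14), while its level in MEF1 EV, 386 and 302, did not differ beyond the spread (0.01, SE 0.14, adjusted p = 0.96). Over the 99 falls 9 lay below all 17 arrays (9.09 percent), against 502 of all genes (4.97 percent).

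Xpnpep1, an aminopeptidase, was among the named falls through a single array. It read 1700 and 7958 with MIXL1+SKM and 9758 and 9378 with EV+SKM, and the 17 other arrays ran from 7838 to 12350. The difference of -1.37 (adjusted p = 0.00841) was -0.26 without MIXL1+SKM replicate 1 (adjusted p = 0.606).

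**Figure D5:**
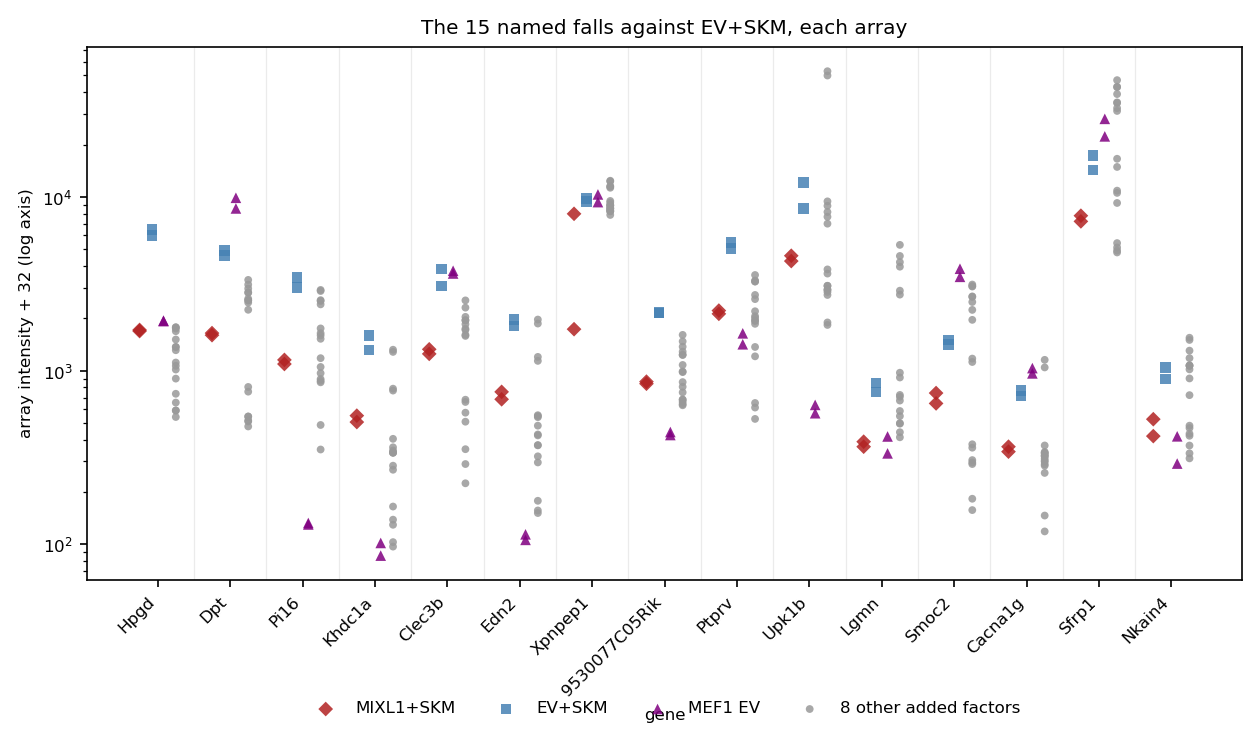
Array intensity plus 32 on a log axis for the 15 genes with the largest falls under the naming rule, with 1 point per array and the same symbols as for the rises. For Hpgd and Dpt the blue EV+SKM squares lie above all grey circles, and for Xpnpep1 the MIXL1+SKM arrays are far apart, at 1700 and 7958.

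Against the mean of the 8 other added factors, each group weighted equally, MIXL1+SKM differed in 4003 of 10108 genes (39.6 percent), 1610 upward (15.9 percent) and 2393 downward (23.7 percent). The count was 2612 without MIXL1+SKM replicate 1 and 1441 without MIXL1+SKM replicate 2, and 2649 against the 5 factors other than CEBPa, HNF4a and GRB2, whose arrays had the highest medians. Both MIXL1+SKM arrays lay outside the range of all 17 other arrays for 10.9 percent of genes tested. This comparison shares the MIXL1+SKM arrays with the first one.

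Most measured genes of stratified epidermis rose. Of 14 cornified envelope genes 12 rose, with a median of 1.95 beside -0.08 over all genes, and of 14 keratinocyte genes 12 rose, with a median of 1.21. Sprr1b, a precursor of the cornified envelope, was at 1675 and 1683 with MIXL1+SKM and at 25.2 to 343 on the 17 arrays (3.34, SE 0.26, adjusted p = 2.78e-10), and Sprr2d at 2589 and 2564 against 102 to 769 (3.25, SE 0.23, adjusted p = 1.5e-10). EV+SKM was also above all 17 arrays, with 1306 and 1596 for Sprr1b and 3088 and 2645 for Sprr2d. The summed intensity of the cornified list was 75739 to 80414 with MIXL1+SKM, 81884 to 87434 with EV+SKM, 24348 to 26757 in MEF1 EV and from 21788 in GATA4+SKM to 40737 in GATA6+SKM over the other factors. In this list the sums with MIXL1+SKM lay just below those with EV+SKM, and the 8 other groups lay below both. For the keratinocyte list the sums were 117620 to 117685 with MIXL1+SKM and 123434 to 128377 with EV+SKM. They were close to these in SOX7+SKM (105813 to 115445) and GATA6+SKM (104629 to 110623). Over the remaining factors they ran from 24987 in PAX1+SKM to 72800 in OCT4+SKM.

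Other lists had calls too. Of 14 genes of simple epithelium 10 rose (median 0.58), of 20 inflammatory genes 13 rose (0.75), and of 26 interferon genes 16 rose and 4 fell (0.69). The summed intensity of simple epithelium was 23770 to 23840 with MIXL1+SKM and higher, 43478 to 50308, in GATA6+SKM. That of the interferon list was 122403 to 133239 and, in GATA6+SKM, 169168 to 174847. The inflammatory sums were 82800 to 84460 with MIXL1+SKM and at most 65545 over the other factors, in SOX7+SKM. Without MIXL1+SKM replicate 2 the interferon counts were 11 and 1, and 6 genes of simple epithelium rose. Of 25 cell cycle genes 0 rose and 10 fell, with a median of -0.34. The falls made up 40.0 percent of that list, beside 23.7 percent of all genes. Counted in either direction, the share of all genes was 39.6 percent. The median of the cell cycle list against MEF1 EV was 0.13 with MIXL1+SKM, 0.11 in GATA6+SKM and -0.003 in SOX7+SKM. Over the remaining factors it ran from 0.27 in OCT4+SKM to 1.10 in GRB2+SKM. Of 15 mesendoderm genes 6 rose (0.20), with Gsc 0.89 above the mean of the 8 groups (SE 0.14, adjusted p = 9.19e-06). Named falls were limited to genes above the brightness limit whose MIXL1+SKM arrays did not overlap those of the other factors. Falls outside this limit are not ranked here. Besides Lgmn, the largest named falls were in Podxl and Rragd, which had a wide range among the other factors. Podxl, a sialomucin of podocytes, was at 142 and 145 against 163 to 18949 (-3.03, SE 0.53, adjusted p = 5.12e-05), and Rragd, a GTPase of nutrient sensing, at 107 and 119 against 149 to 4470 (-1.89). Arl2 (-1.68), Dld, a subunit of mitochondrial dehydrogenases (-1.57), and Pde6d (-1.44) followed.

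Against OCT4+SKM, the combination of all 4 classical factors, 947 genes differed (9.37 percent), 368 upward (3.64 percent) and 579 downward (5.73 percent). The count was 538 without MIXL1+SKM replicate 1, 490 without MIXL1+SKM replicate 2 and 438 without OCT4+SKM replicate 2. Of 17 ectoderm and neural genes 1 rose and 4 fell, with a median of 0.08 beside 0.00 over all genes. Rbfox3, a neuronal splicing factor, was at 165 and 218 against 5396 and 6132 (-4.71, SE 0.32, adjusted p = 2e-12), and Nefm at 772 and 703 against 14966 and 13424 (-4.21, SE 0.22, adjusted p = 2.76e-15). Mgarp, a mitochondrial protein, was at 1520 and 1266 against 28720 and 31405 (-4.40, SE 0.42, adjusted p = 3.22e-09). Vgf, a neuropeptide precursor (-3.39), the cofactor Ldb2 (-3.36) and Tox3 (-3.23) completed the named falls.

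The named rises against OCT4+SKM were again Nav2 (by the probe with the highest mean), Gal, Krt27, Gsta3 and Tprg. Gmps, an enzyme of purine synthesis, joined them at 2034 and 1973 against 160 and 143 (3.47, SE 0.22, adjusted p = 1.96e-12). Of 14 cornified envelope genes 10 rose (median 1.74, beside 0.00 over all genes), of 14 keratinocyte genes 6 (0.71) and of 20 inflammatory genes 9 (0.51). Lor, at 5257 and 5931 with MIXL1+SKM, was higher by 1.99 (SE 0.23, adjusted p = 1.85e-07). Of 26 interferon genes 7 rose and 1 fell, and of 14 imprinted genes 0 rose and 4 fell. The interferon counts were 4 and 0 without MIXL1+SKM replicate 1, 3 and 1 without MIXL1+SKM replicate 2, and 3 and 0 without OCT4+SKM replicate 1 or replicate 2. In the fit on MEF1 EV and the SKM groups alone they were 14 and 1. Mesendoderm genes had 0 rises and 2 falls among 15, and Gsc differed by 0.40 (SE 0.19, adjusted p = 0.199).

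Against MEF1 EV, the fibroblasts without SKM, 2427 genes differed (24.0 percent), 1085 upward (10.7 percent) and 1342 downward (13.3 percent). The arrays of the groups did not overlap for 67.2 percent of genes tested, and for 64.4 percent against OCT4+SKM. The count was 1499 without MIXL1+SKM replicate 2 and 1402 without MEF1 EV replicate 1. Krt8, a keratin of simple epithelium, was at 13320 and 12780 against 35.3 and 40.7 (7.55, SE 0.22, adjusted p = 8.4e-22, and 8.43 to 6.31 with a smaller and a larger pseudocount), and Krt17, a keratin of hair follicle and wounded skin, at 18290 and 16686 against 126 and 95.5 (6.95, SE 0.24, adjusted p = 4.56e-20). Cnfn (6.09), Lgals7 (5.87) and Sprr1b (5.73) of the epidermis followed. The differences of Cnfn (8.68 to 4.33) and Sprr1b (10.71 to 3.82) also depended on the pseudocount. Of 14 cornified envelope genes 13 rose, of 14 keratinocyte genes 11 and of 14 simple epithelium genes 9. Of 21 collagens 0 rose and 15 fell, with a median of -1.07 beside -0.04 over all genes, and of 28 fibroblast genes 0 rose and 11 fell (-0.53).

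Among the largest falls against MEF1 EV were Mmut, a mitochondrial mutase, with 21.2 and 49.7 against 1366 and 1190 (-4.31, SE 0.73, adjusted p = 3.91e-05), and Nrk, a protein kinase, with 469 and 375 against 5411 and 5429 (-3.59, SE 0.17, adjusted p = 4.28e-17). With the largest pseudocount tried Mmut was at -3.11 and Nrk at -3.34, so their order depends on it. A second Mmut probe read 364 and 281 with MIXL1+SKM and 377 and 404 in MEF1 EV. Ldb2 (-3.21), Car3 (-3.13), Tmem178 (-3.10) and the collagen Col26a1 (-2.93) came next. In the interferon list 7 genes rose and 1 fell against MEF1 EV, and the median was 0.04. Without MIXL1+SKM replicate 2 the counts were 4 and 1. The median of that list against MEF1 EV was -0.61 in EV+SKM, 0.51 in GATA6+SKM and -1.30 in SOX7+SKM. On this scale MIXL1+SKM stood next to the fibroblasts without SKM.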

How the data were processed

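The deposited values are linear intensities of Cy5-labelled RNA, 1 per probe and array, in a table the authors made. How the authors corrected background and normalized, and with what software, is not given in the sources used here. Of 19426 probes 15539 carried 1 gene symbol (13971 current, 1538 by a unique synonym, 30 with the platform's name kept), and 3887 were left out. The 23 arrays of MEF1 EV and the SKM groups hold 14562 probes and 10108 genes. The probe with the highest mean on them stood for a gene with several (919 genes). No array pair was identical.

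log2(intensity + 32) was fitted with limma 3.58.1 in R 4.3.3, with 1 mean for each group, all 49 arrays and an intensity trend, two-sided, Benjamini-Hochberg adjusted over all genes, threshold 0.05. The fit was checked on simulated data that gave a gene the same spread in every group, so the check does not cover unequal spreads. Named genes were the 15 largest rises and falls against EV+SKM, and 6 in the other comparisons, that passed, did not overlap and had a brighter group mean above 685, the median gene. Factor genes, list members that passed and up to 4 others per list were added. The latter were taken by brightness, except T and Axin2, which were added after their values were seen. Members and lists were chosen with earlier results of these data known. RefSeq promoter windows were searched for motifs. Alternatives changed the pseudocount, filter, samples in the fit, scaling, trend, probe rule, replicate block and arrays.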

Additional observations from a re-analysis of the deposited data

How the results depend on the processing

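No named gene reversed its direction under any alternative run. Against EV+SKM the count of 202 became 695 with MEF1 EV and the SKM groups alone in the fit (266 upward, 429 downward; 200 of the 202 among them) and 115 with the arrays of the groups compared alone (77 and 38), and ran from 75 to 143 with an array left out. Against the mean of the 8 other factors 4003 became 1441 to 2612 with an array left out and 2649 with the mean of the 5 others, an alternative chosen after seeing the data. Against OCT4+SKM 947 became 2399 and 1786 in the same fits on fewer groups and 438 to 695 with an array left out. Against MEF1 EV 2427 became 3942 with the SKM groups and MEF1 EV alone and 1402 to 2042 with an array left out. The cause was not tested. The other alternatives stayed within 1.5 times. Quantile normalization moved the median of all genes from -0.02 to -0.01 against EV+SKM. Without the interferon list 188 genes passed.

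Replicate numbers are shared between groups. Deviations of same-numbered arrays of MIXL1+SKM correlated over genes at -0.09 with EV+SKM, -0.17 with MEF1 EV, 0.10 with OCT4+SKM and from -0.21 (GATA4+SKM) to 0.22 (GRB2+SKM) over the other factors. Not every pair was above 0.1, so the numbers were not taken to pair the arrays. With the replicate block 185 genes passed against EV+SKM (183 of the 202 among them), 3860 against the 8 others, 864 against OCT4+SKM and 2295 against MEF1 EV.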
